A study of Lotus japonicus with 18 samples.

Results

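In shoots of the legume Lotus japonicus, 7 genes described as enzymes of isoflavonoid and pterocarpan synthesis were followed across 2 Ljmyb36 mutant lines and the wild type (WT), with and without salt. They are 2 deoxychalcone synthases, 1 2-hydroxyisoflavanone synthase, 1 2-hydroxyisoflavanone dehydratase, 1 isoflavone 2'-hydroxylase, 1 isoflavone 7-O-methyltransferase and 1 vestitone reductase, out of 33994 entries in the deposited table. The genes were chosen by their pathway step with their levels in all 6 groups in view, so their differences between groups are given as descriptions, with a standard error (SE) and no p. Names come from the table's descriptions, which rest on similarity to proteins of other species.

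Line 1 and line 2 are described by the submitters as knockouts of the gene for the transcription factor MYB36, and no source used here says what allele each line carries. Salt plants had NaCl raised in steps of 50 mM every 4 days to 100 mM and spent about 2 days at the final level. Control plants received the same nutrient solution without added NaCl. All shoots were harvested on day 34, when the lights had been on for 4 hours. The 6 groups, line 1 salt, line 2 salt, WT salt, line 1 control, line 2 control and WT control, held 3 libraries each, labelled as biological replicates without a word on separate pots or pools, so errors and p-values measure the spread between these libraries.

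Isoflavonoids are the branch of flavonoid metabolism that legumes are known for. A deoxychalcone synthase works beside chalcone synthase to give the 6'-deoxychalcones, 2-hydroxyisoflavanone synthase moves the aryl ring and so commits the flavanone to the branch, and a dehydratase completes the isoflavone. Hydroxylation, methylation and reduction then lead to pterocarpans and isoflavans, which act as phytoalexins, and the isoflavan vestitol is the known phytoalexin of Lotus japonicus.

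Levels are FPKM (fragments per kilobase of transcript, scaled by library depth), so they may be compared between genes as well as between libraries. Whole reads recovered from the FPKM summed to between 42125949 and 101713201 per library. The last 8 library columns of the table stood apart from the first 10, with 27377 to 28132 entries above 0 against 23844 to 26903, and each group holds libraries of both blocks; what the blocks are was not given. Of the genes with a description, 5 are named MYB36; which of them is mutated is not stated, and none of them was at 0 in both lines. LotjaGi4g1v0091600, the one with the highest FPKM in WT control, lay between 2.33 and 5.47 FPKM in line 1 salt, between 2.16 and 3.40 in line 2 salt and between 0.727 and 0.987 in WT salt. Its control levels were 3.54 to 5.04 FPKM in line 1, 3.67 to 4.58 in line 2 and 6.05 to 6.60 in WT, so the expression data do not check the mutant labels. Summed FPKM of 17 chlorophyll a-b binding protein genes ran from 32188 to 51653, and that of 3 Rubisco small subunit genes from 13980 to 21895. The highest FPKM of any leghemoglobin gene, a nodule marker, was 0.257. The root markers were as low, with at most 0.841 FPKM for the high-affinity nitrate transporter and 0.906 for a Casparian strip membrane protein.

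In WT, all 7 genes were lower in salt than in control, and in every one the 3 salt libraries lay below the 3 control libraries. In each mutant line the salt and control libraries overlapped for 5 genes and lay higher in salt for the other 2, the second deoxychalcone synthase and the 2'-hydroxylase. All 7 genes lay above WT salt in each line, again with no overlap. In control the lines did not move as a block. Both deoxychalcone synthases, 2-hydroxyisoflavanone synthase and isoflavone 2'-hydroxylase lay below WT in both lines, the dehydratase and the methyltransferase lay above it, and vestitone reductase overlapped with it. The 7 genes were chosen with these values in view, and the share of all genes without overlap was not counted. By limma at an unadjusted p under 0.05, 3020 of 20433 genes were lower and 2492 higher with salt in WT. Against WT in salt, 3497 were higher and 2299 lower in line 1, and 4122 and 3356 in line 2. In bulk shoots, fewer cells of a type and less RNA per cell cannot be told apart.

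**Figure D1:**
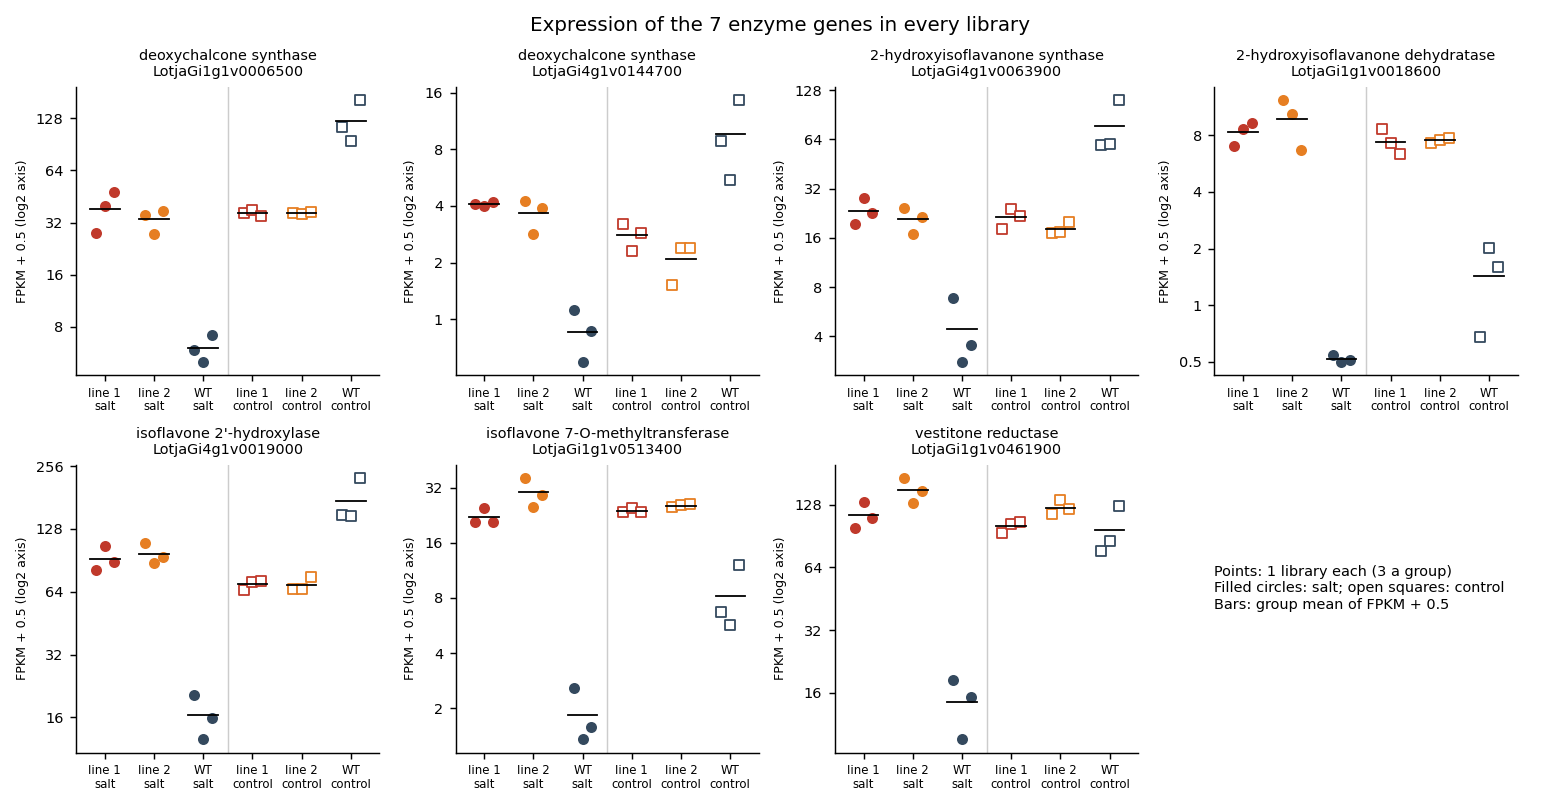
FPKM + 0.5 on a log2 axis for each of the 7 enzyme genes in 18 libraries, with salt groups at the left and control groups at the right. Each point is 1 library and each bar the mean of 3. In all 7 panels the WT salt libraries are the lowest, and in 5 of 7 the salt and control libraries of each mutant line overlap.

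The first deoxychalcone synthase, LotjaGi1g1v0006500 (chromosome 1, 944698 to 964224), had 27.4, 39.5 and 47.3 FPKM in line 1 salt, 34.7, 27.0 and 36.9 in line 2 salt, and 5.39, 4.53 and 6.68 in WT salt. Its control values were 35.7, 37.2 and 34.5 FPKM in line 1, 36.05, 35.2 and 36.1 in line 2, and 112.8, 94.7 and 162.4 in WT. The 3 WT control libraries were the highest of all 18 and the 3 WT salt libraries the lowest, and the 4 groups of the lines overlapped. On the log2(FPKM + 0.5) scale, salt minus control was 0.05 in line 1, -0.13 in line 2 and -4.34 in WT (SE 0.20 for each). On this scale and over all libraries, the WT value was the largest salt difference among the 7. It lay close to the -4.17 (SE 0.28) of 2-hydroxyisoflavanone synthase in WT. By limma voom on the recovered reads, the dehydratase had -5.20 in WT, so the rank is not fixed.

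The second deoxychalcone synthase, LotjaGi4g1v0144700 (chromosome 4, 23188212 to 23189992), was the weaker copy. It had 3.61, 3.51 and 3.71 FPKM in line 1 salt, 3.75, 2.35 and 3.39 in line 2 salt, and 0.616, 0.0952 and 0.371 in WT salt. In control, line 1 gave 2.72, 1.80 and 2.38 FPKM, line 2 gave 1.03, 1.88 and 1.90, and WT gave 8.31, 5.002 and 14.1. The salt libraries of each line all lay above that line's control libraries, while those of WT all lay below. The log2 difference of salt minus control was 0.57 in line 1, 0.81 in line 2 and -3.42 in WT (SE 0.30). In line 2 minus WT in control it was -2.11, against -1.19 within the last 8 columns, where WT control and line 2 control have 1 library each.

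The 2-hydroxyisoflavanone synthase LotjaGi4g1v0063900 (chromosome 4, 7995539 to 7997935) encodes the cytochrome P450 at the entry of the branch. Salt values were 19.05, 27.5 and 22.1 FPKM in line 1, 24.0, 16.5 and 20.9 in line 2, and 6.36, 2.29 and 3.04 in WT. Control values were 17.7, 23.6 and 21.4 FPKM in line 1, 16.6, 16.8 and 19.6 in line 2, and 58.3, 59.9 and 110.9 in WT. As for the first deoxychalcone synthase, the lines overlapped between conditions and lay between WT salt and WT control. The difference of salt minus control was 0.12 in line 1, 0.20 in line 2 and -4.17 in WT on the log2 scale (SE 0.28).

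The 2-hydroxyisoflavanone dehydratase LotjaGi1g1v0018600 (chromosome 1, 2280772 to 2282247), which removes water to form the isoflavone, was the gene nearest to silence in WT. Its FPKM was 6.55, 8.11 and 8.78 in line 1 salt, 11.8, 9.86 and 6.18 in line 2 salt, and 0.0403, 0 and 0.0106 in WT salt. The WT salt values rest on 3, 0 and 1 reads. In control it was 8.12, 6.75 and 5.82 FPKM in line 1, 6.79, 7.05 and 7.21 in line 2, and 0.179, 1.52 and 1.09 in WT. All 12 libraries of the lines lay above all 6 WT libraries. On the log2 scale, line 2 minus WT in control was 2.53 and line 2 minus line 1 was 0.03 (SE 0.30). In salt, line minus WT was 4.00 for line 1 and 4.20 for line 2, against 8.92 and 9.13 by limma voom on the recovered reads and 6.08 for line 1 with a pseudocount of 0.1. Salt minus control in WT was -1.33 with a pseudocount of 0.5, -2.81 with 0.1 and -5.20 by limma voom. The size of every difference from WT salt thus depends on how values near 0 are treated.

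The isoflavone 2'-hydroxylase LotjaGi4g1v0019000 (chromosome 4, 2382610 to 2385344) adds the hydroxyl group from which the pterocarpan ring is later closed. It gave 81.3, 105.3 and 88.7 FPKM in line 1 salt, 109.4, 87.8 and 93.2 in line 2 salt, and 20.05, 12.04 and 15.4 in WT salt. Control libraries gave 64.7, 71.1 and 71.5 FPKM in line 1, 65.5, 65.5 and 74.6 in line 2, and 148.5, 147.0 and 224.6 in WT. This gene, like the second deoxychalcone synthase, had salt libraries above the control libraries in each line. The log2 difference was 0.40 in line 1 and 0.49 in line 2, against -3.41 in WT (SE 0.17).

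The isoflavone 7-O-methyltransferase LotjaGi1g1v0513400 (chromosome 1, 103539608 to 103541900), a methyl-transferring enzyme of the isoflavone ring, had 20.3, 24.4 and 20.3 FPKM in line 1 salt, 35.7, 24.5 and 28.6 in line 2 salt, and 2.07, 0.851 and 1.08 in WT salt. Its control values were 22.9, 24.4 and 23.1 FPKM in line 1, 24.5, 25.1 and 25.6 in line 2, and 6.23, 5.17 and 11.7 in WT. The lines lay above WT in both conditions without overlap. Line minus WT was 1.63 for line 1 and 1.72 for line 2 in control, and 3.65 and 4.08 in salt, on the log2 scale (SE 0.24). Salt minus control in WT was -2.13 over all libraries, -2.63 within the first 10 columns and -1.14 within the last 8, which hold 1 WT library of each condition.

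The vestitone reductase LotjaGi1g1v0461900 (chromosome 1, 96638096 to 96641134), known from alfalfa as the reductase before the last step to the pterocarpan medicarpin, was the gene whose control level was most alike in the 3 genotypes. In salt, line 1 had 99.0, 131.6 and 109.7 FPKM, line 2 had 172.5, 130.4 and 148.9, and WT had 17.9, 9.02 and 14.8. Control libraries had 93.4, 103.1 and 105.0 FPKM in line 1, 115.0, 134.8 and 121.7 in line 2, and 76.7, 85.5 and 126.4 in WT. The 3 WT salt libraries lay below the other 15, and the WT control libraries overlapped with the control libraries of each line. Line minus WT in control was 0.10 for line 1 and 0.39 for line 2 on the log2 scale (SE 0.21), and in salt it was 3.03 and 3.44.

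**Figure D2:**
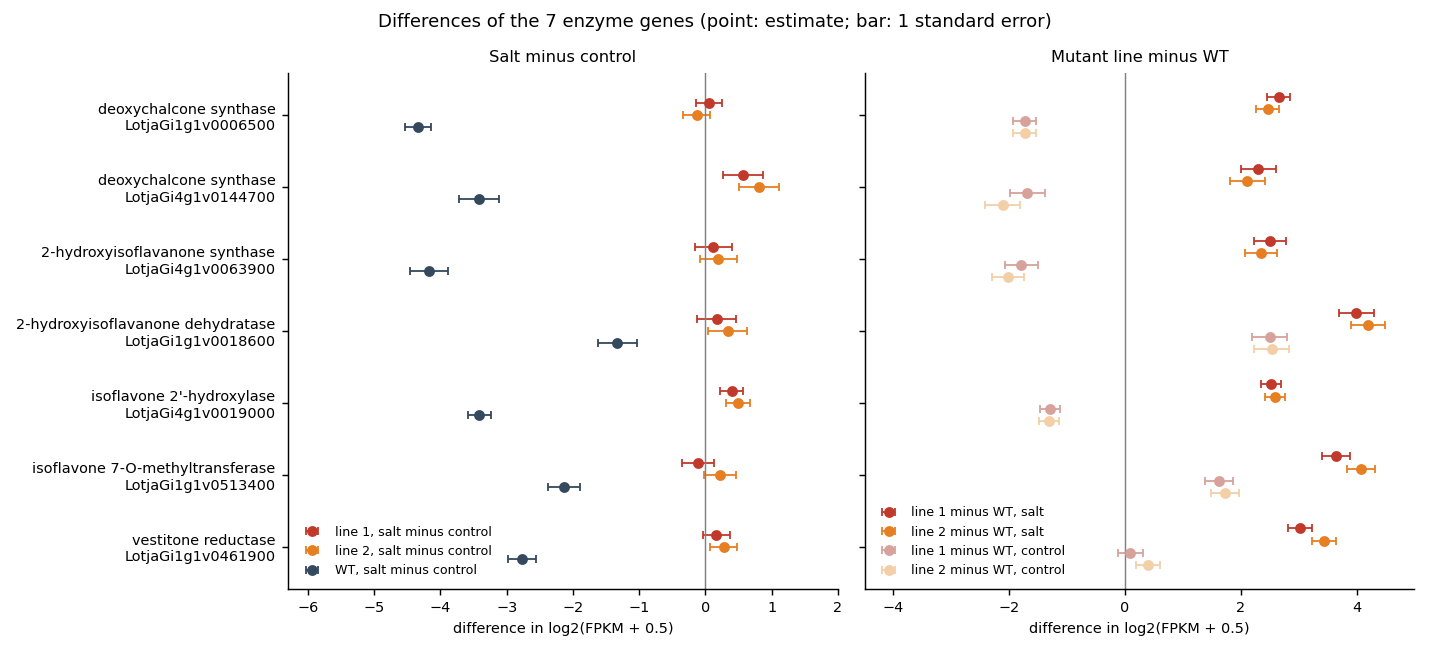
Differences of the 7 genes on the log2(FPKM + 0.5) scale, salt minus control at the left and mutant line minus WT at the right, as estimate and 1 SE. Salt differences of WT run from -4.34 to -1.33 while those of the lines run from -0.13 to 0.81, and the line differences are all above 0 in salt but on both sides of 0 in control.

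Set side by side, salt minus control in WT was below 0 for all 7 genes without overlap; over all 20433 genes tested with limma, 9.91% were called lower and 6.35% higher in that comparison at an adjusted p under 0.05. In salt, all 7 lay above WT in each line, where 11.2% of all genes were called higher and 4.77% lower in line 1, and 14.9% higher and 10.2% lower in line 2. In control, 4 genes lay below WT and 2 above in each line, beside 4.31% of all genes lower and 7.37% higher in line 1, and 5.35% lower and 7.22% higher in line 2. Salt and control overlapped within a line for 5 of 7 genes, in line 1 and in line 2, and the other 2 lay higher in salt; of all genes, 4.19% were higher and 4.42% lower in line 1, and 4.24% higher and 4.42% lower in line 2. Scaled to the gene total in place of the deposited scaling, the calls over all genes in line 2 with salt became 368 higher and 1191 lower, against 866 and 904. Line 2 against WT in control became 1821 higher and 641 lower, against 1476 and 1094. The mean salt difference of the lines minus that of WT ran from 2.19 for the methyltransferase to 4.33 for 2-hydroxyisoflavanone synthase over 6 of the genes (SE 0.21 to 0.37), in a comparison where 5.89% of all genes were called higher and 2.27% lower. For the dehydratase it was 1.58, 3.08 with a pseudocount of 0.1 and 5.35 by limma voom, so its place among the 7 is not fixed. The size of this difference also varied between the blocks of columns. It was 2.73 within the first 10 and 1.07 within the last 8 for the methyltransferase. For 2-hydroxyisoflavanone synthase it was 5.05 and 3.03. The last 8 hold 1 WT library of each condition. The shares of all genes in this paragraph count limma calls after adjustment, a stricter measure than 3 libraries lying clear of 3 others. For salt in line 1, 2203 of 20433 genes were higher and 2054 lower at an unadjusted p under 0.05, and 2722 and 2373 in line 2. For salt in WT these counts were 2492 and 3020. Against WT in salt they were 3497 and 2299 in line 1, and 4122 and 3356 in line 2. Against WT in control they were 2749 and 2257 in line 1, and 2731 and 2531 in line 2. The share of all genes without overlap was not counted. Since the values of the 7 also chose them, the shares are given only as a frame. The WT control group was uneven: replicate 3 was the highest of its group for 6 of 7 genes, and in WT salt replicate 2 was the lowest for all 7.

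Between the lines themselves, the log2 difference of line 2 minus line 1 ran from -0.43 to 0.30 in control and from -0.19 to 0.43 in salt. In control 5 of 7 genes overlapped between the lines and 2 lay higher in line 2, and in salt 6 overlapped and 1 lay higher in line 2. Over all genes, limma called 0.0636% higher and 0.0832% lower in control after adjustment, and 0.92% higher and 0.817% lower in salt. Such calls are a stricter measure than libraries without overlap, and the share of all genes without overlap was not counted. The shares are therefore no background for the overlap counts of the 7 genes.

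The lower level in WT salt did not fall evenly on the chosen genes. In control, the ratio of vestitone reductase to the first deoxychalcone synthase was 2.81 ± 0.217 in line 1, 3.46 ± 0.326 in line 2 and 0.787 ± 0.112 in WT (SD, n = 3 each). In salt it was 3.09 ± 0.682 in line 1, 4.61 ± 0.504 in line 2 and 2.51 ± 0.707 in WT. For these chosen copies, WT control therefore stood alone in having less reductase than deoxychalcone synthase. The WT salt ratios overlapped with those of line 1 salt. Summed over all entries of each name, the reductase was the smaller in WT control (101.3 against 210.9 FPKM) and also in WT salt (19.7 against 22.5). In both lines the reductase sum was the larger in each condition. The ratio of methyltransferase to 2'-hydroxylase, by contrast, was low in WT in both conditions. It was 0.237 in line 1 salt, 0.304 in line 2 salt and 0.0813 in WT salt, and 0.340, 0.367 and 0.0431 in line 1, line 2 and WT control.

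For 5 of the 7 genes other copies of the family were expressed, and the share of the chosen copies in the family's summed FPKM is given here in control and in salt. Of 10 entries described as deoxychalcone synthase, the 2 chosen ones held 34.8% to 38.3% in line 1 control, 27.4% to 33.3% in line 2 control and 60.7% to 66.7% in WT control. In salt they held 30.4% to 41.2% in line 1, 26.8% to 30.2% in line 2 and 22.2% to 29.8% in WT. The chosen synthase among 3 entries of 2-hydroxyisoflavanone synthase held 15.4% to 17.2% in line 1 control, 11.7% to 14.1% in line 2 control and 31.0% to 35.0% in WT control. Its salt shares were 14.6% to 18.8% in line 1, 11% to 14.3% in line 2 and 8.09% to 15.4% in WT. For both enzymes the WT control libraries thus lay above all others, and the WT salt libraries reached down to the shares of the lines or below.

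For the dehydratase, with 6 entries, the chosen copy held 8.46% to 12.1% in line 1 control, 10.7% to 12.4% in line 2 control and 0.184% to 1.36% in WT control. In salt it held 10.8% to 11.9% in line 1, 7.56% to 15.0% in line 2 and 0% to 0.131% in WT, so its share was below that of the lines in all 6 WT libraries. The chosen vestitone reductase, 1 of 3 entries, held 89.8% to 90.9% in line 1 control, 90.1% to 90.9% in line 2 control and 93.9% to 96.0% in WT control. In salt its share was 88.5% to 89.3% in line 1, 89.9% to 91.3% in line 2 and 57.6% to 75.7% in WT, the lowest of any group. The 2'-hydroxylase was the single entry of its name, and the methyltransferase held 100% of the FPKM of the 2 entries with its exact description in all 6 groups. Reads of near-identical copies may be shared or split by the counting, whose strand setting is not given, and this bears on every share above; no other entry overlaps any of the 7 genes.

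**Figure D3:**
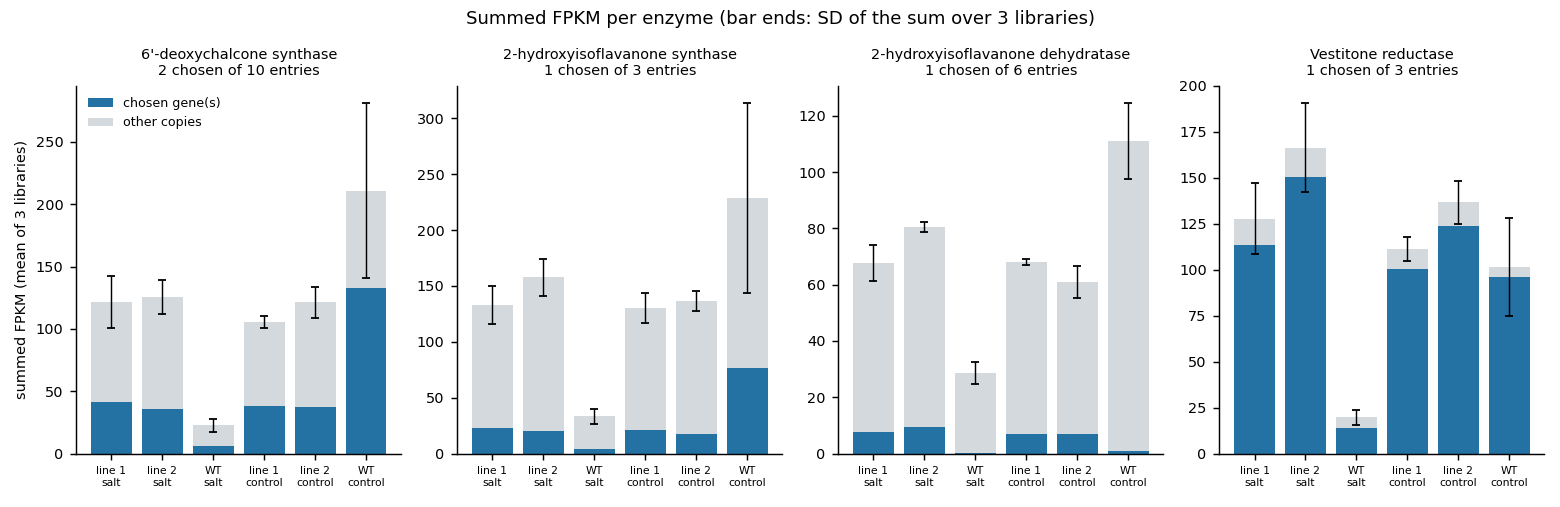
Summed FPKM of all entries with the same description, as the mean of 3 libraries with the SD of the sum, parted into the chosen genes (blue) and the other copies (grey). WT salt has the smallest sum in all 4 panels, and in WT control the blue part is larger than in the lines for the first 2 enzymes and nearly absent for the dehydratase.

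Among the other copies, 9 had a mean of at least 5 FPKM in some group, and these were tested with limma, adjusted over all genes. They are copies left out of a set picked from these same samples, so they are not independent evidence of a direction. In WT, 6 of the 9 fell with salt, where 9.91% of all genes fell and 6.35% rose. All 6 were higher in the test of the mean salt effect in both lines less the WT effect, beside 5.89% of all genes. The WT effect is part of that test, so these results are not independent of each other. The 2-hydroxyisoflavanone synthase LotjaGi4g1v0063000 averaged 86.3 ± 13.7 FPKM in line 1 salt, 107.4 ± 15.6 in line 2 salt and 14.6 ± 4.67 in WT salt (SD, n = 3 each). Its control means were 73.6 ± 8.55 in line 1, 87.2 ± 5.59 in line 2 and 106.8 ± 50.3 in WT. The salt effect of the lines exceeded that of WT by 3.03 (SE 0.31, limma adjusted p = 7.40e-06). Without salt, line 1 and line 2 did not pass against WT (limma adjusted p = 0.304 and 0.687).

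The dehydratase LotjaGi5g1v0316500 was the main copy of its step. It averaged 43.9 ± 4.85 FPKM in line 1 salt, 53.7 ± 4.62 in line 2 salt and 15.5 ± 3.39 in WT salt, and 46.6 ± 1.06, 39.8 ± 4.08 and 95.8 ± 12.4 in line 1, line 2 and WT control (SD, n = 3 each). In control it was lower than WT in line 1 (log2 change -1.02, limma adjusted p = 1.22e-04) and in line 2 (-1.25, 1.30e-05), the direction opposite to that of the chosen copy. The 2 neighbouring dehydratases, LotjaGi5g1v0316400 and LotjaGi5g1v0316300, did not pass the test for salt in WT (limma adjusted p = 0.480 and 0.998), while LotjaGi5g1v0316300 was higher with salt in line 2 (log2 change 0.75, adjusted p = 0.00781).

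The vestitone reductase next to the chosen one, LotjaGi1g1v0462000 and 3001 bases away, was the minor copy. It averaged 14.2 ± 2.63 FPKM in line 1 salt, 15.7 ± 3.29 in line 2 salt and 5.76 ± 0.957 in WT salt, and 10.9 ± 0.663, 12.9 ± 1.65 and 5.13 ± 0.134 in line 1, line 2 and WT control. It did not pass the test for salt in WT (log2 change 0.14, limma adjusted p = 0.641) or for the difference of salt effects (0.16, adjusted p = 0.707). It was higher than WT in control in line 1 (1.02, adjusted p = 2.73e-04) and line 2 (1.24, 3.25e-05).

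Over the whole isoflavonoid list, which holds 52 entries with the chosen genes, 45 others were listed and 21 of them passed the expression filter. With salt in WT, 10 of 21 fell and 0 rose by limma (12 and 0 at an unadjusted p under 0.05, and 10 and 0 by limma voom), with a median log2 change of -0.99 against 0.01 over all genes. With salt in WT, 9.91% of all genes fell and 6.35% rose. In line 1, 0 rose and 1 fell (2 and 2 unadjusted, 0 and 1 by limma voom), where 4.19% of all genes rose and 4.42% fell. The share of the list that fell in line 1, 4.76%, was thus near that of all genes. In line 2, 2 rose and 0 fell (5 and 1 unadjusted, 2 and 0 by limma voom), where 4.24% of all genes rose and 4.42% fell. For the mean salt effect in both lines less the WT effect, 10 of 21 were higher and 0 lower. At an unadjusted p under 0.05 the counts were 11 and 0, and by limma voom 10 and 0. Of all genes, 5.89% were higher and 2.27% lower. The 10 were the same genes that fell in WT. Since the WT effect enters this difference with its sign reversed, that match is in part built in. The list's median for that difference was 0.55, against 0.00 over all genes, and by limma voom it was 1.15, against -0.04.

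Against WT in salt, 14 of 21 were higher in line 1 and 16 in line 2, with 0 lower in each (0 and 1 lower at an unadjusted p under 0.05, 0 and 0 by limma voom). Of all genes, 11.2% were higher and 4.77% lower in line 1, and 14.9% higher and 10.2% lower in line 2. The list's median log2 difference was 1.23 in line 1 and 1.36 in line 2, against 0.01 and 0.00 over all genes. In control, line 1 had 3 higher and 4 lower (5 and 5 unadjusted, 3 and 4 by limma voom), where 7.37% of all genes were higher and 4.31% lower. Line 2 had 3 higher and 5 lower (5 and 5 unadjusted, 5 and 5 by limma voom), where 7.22% of all genes were higher and 5.35% lower. Of the 10 that fell with salt in WT, 4 were lower in both lines in control and 5 were called in neither. Line 2 against line 1 gave 0 called of 21 in control and 0 in salt by limma. At an unadjusted p under 0.05 the counts were 0 and 3, and by limma voom 0 in each. Of all genes, 0.0636% were called higher and 0.0832% lower in control, and 0.92% higher and 0.817% lower in salt.

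A few more of the 21, which modify the isoflavonoid skeleton or close the pterocarpan ring, are named here after their values were seen. The pterocarpan synthase LotjaGi1g1v0277900 averaged 105.6 ± 25.6 FPKM in line 1 salt, 109.6 ± 4.64 in line 2 salt and 5.52 ± 3.35 in WT salt, and 75.4 ± 15.6, 92.3 ± 15.5 and 61.2 ± 18.6 in line 1, line 2 and WT control (SD, n = 3 each). Its level fell by 3.50 with salt in WT on the log2 scale (SE 0.34, limma adjusted p = 1.04e-06). The isoflavone 4'-O-methyltransferase LotjaGi4g1v0062900 fell by 2.73 with salt in WT (SE 0.16, adjusted p = 4.40e-09) and was lower than WT in control in line 1 and in line 2 (log2 change -1.24 in each). Isoflavone reductase, LotjaGi2g1v0388100, which acts after the 2'-hydroxylase, fell by 0.99 with salt in WT (adjusted p = 2.22e-04) and rose by 0.76 in line 2 (adjusted p = 0.00868). A second pterocarpan synthase, LotjaGi1g1v0733200, did not pass with salt in WT (adjusted p = 0.919) and was higher than WT in both lines in both conditions, as were LotjaGi1g1v0462000 and LotjaGi5g1v0196200, whose description is isoflavone 7-O-methyltransferase with a number.

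**Figure D4:**
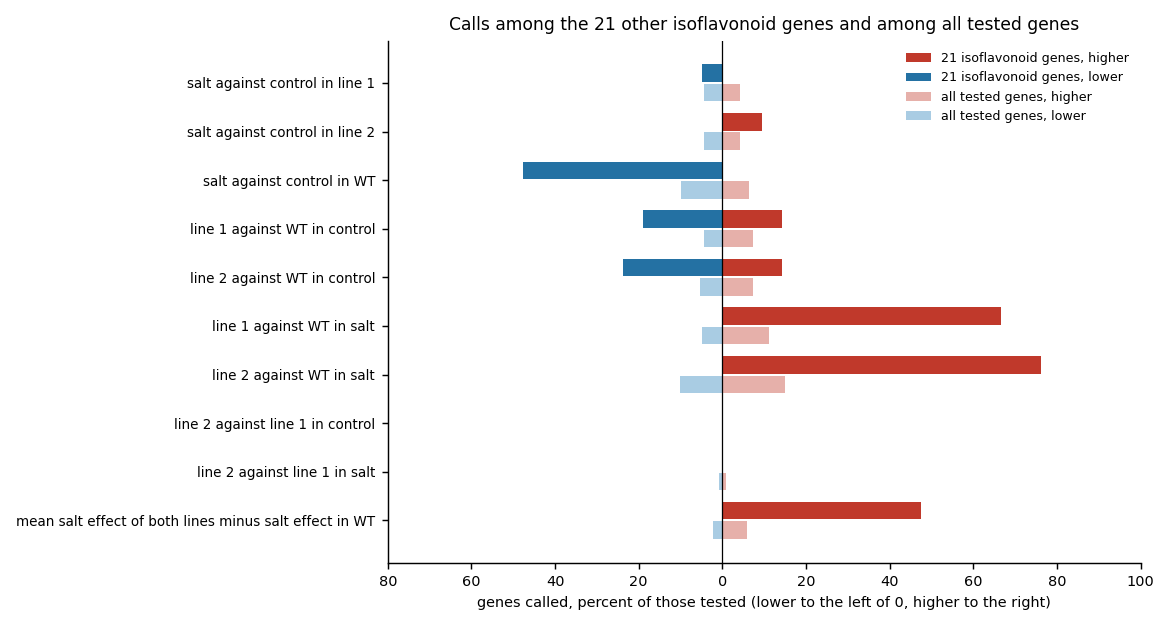
Share of the 21 other isoflavonoid genes called higher (red) or lower (blue) by limma in each comparison, beside the share of all 20433 tested genes (pale). Of the list, 47.6% were lower with salt in WT, and 66.7% in line 1 and 76.2% in line 2 were higher than in WT in salt.

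Upstream of the branch lie the enzymes that make chalcones and those that lead phenylalanine into phenylpropanoids. Of 16 tested chalcone synthase and isomerase genes, 14 fell with salt in WT and 0 rose by limma (14 and 0 at an unadjusted p under 0.05, 13 and 0 by limma voom), where 9.91% of all genes fell and 6.35% rose. For the difference of salt effects, 12 were higher and 0 lower (14 and 0 unadjusted, 11 and 0 by limma voom), where 5.89% of all genes were higher and 2.27% lower. The chalcone synthase, the ammonia-lyase and the flavonol synthase named next were picked as among the smallest adjusted p for that difference in their lists. The WT salt effect is part of that difference, so a small p for salt in WT is in part built into the choice. Chalcone synthase LotjaGi2g1v0446700, which makes the chalcone backbone, averaged 23.2 ± 5.32 FPKM in line 1 salt, 27.7 ± 4.21 in line 2 salt and 3.52 ± 1.25 in WT salt, and 25.7 ± 1.17, 24.4 ± 2.22 and 86.2 ± 27.4 in line 1, line 2 and WT control (SD, n = 3 each). It fell by 4.43 in WT (SE 0.22, limma adjusted p = 1.01e-09) and was 1.68 lower in line 1 and 1.76 lower in line 2 than in WT in control. Of 14 phenylpropanoid entry genes, 5 fell and 4 rose with salt in WT, and 7 were higher and 0 lower for the difference of salt effects (7 and 1 unadjusted, 6 and 0 by limma voom). Phenylalanine ammonia-lyase LotjaGi1g1v0690200, the first enzyme of the route, fell by 2.90 in WT (SE 0.13, adjusted p = 6.37e-10).

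Flavonols, anthocyanins and tannins are made from the same flavanones by other enzymes. Of 21 tested genes of these branches, 1 rose and 2 fell with salt in WT by limma, where 6.35% of all genes rose and 9.91% fell, and 0 passed for the mean salt effect in both lines less the WT effect, with 2 higher and 2 lower at an unadjusted p under 0.05 and 0 by limma voom. Flavonol synthase LotjaGi1g1v0327900 fell by 0.49 in WT (limma adjusted p = 0.0141) and was 0.47 lower than WT in line 1 control (adjusted p = 0.0272) and 0.87 lower in line 2 control (2.32e-04).

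The genes nearest to the mean profile of the 7 over 18 libraries were sought by the root-mean-square difference of their centred log2(FPKM + 0.5). The mean joins members that differ in direction in control, so nearness to it is not likeness to each of the 7. Nearest was LotjaGi2g1v0289200, described as Protein SRG1, a name for an oxygenase linked to senescence in Arabidopsis, at 0.17, followed by the 2-hydroxyisoflavanone synthase LotjaGi4g1v0063000 at 0.21 and LotjaGi3g1v0413800, described as a homoterpene (TMTT) synthase, at 0.30. The transcription factor MYB123 (LotjaGi3g1v0398400), known in Arabidopsis as a regulator of seed coat tannins, came at 0.31, a WRKY transcription factor 6 (LotjaGi6g1v0292300) at 0.33 and a pleiotropic drug resistance transporter (LotjaGi3g1v0013300) at 0.33. The last of the 8 were a deoxychalcone synthase (LotjaGi6g1v0022600) and an isoliquiritigenin 2'-O-methyltransferase (LotjaGi2g1v0018700), both at 0.33. Thus 3 of 8 belong to the isoflavonoid list, to which 21 of 20433 tested genes belong besides the 7. The profile is the mean of 7 genes of that same list, chosen with these values in view, so this match is in part built in. LotjaGi4g1v0063000 and LotjaGi6g1v0022600 also carry the description of a chosen gene, and reads of near-identical copies may be shared. The count is therefore not independent evidence of likeness. The SRG1 gene averaged 48.1 FPKM in line 1 salt, 53.0 in line 2 salt and 5.68 in WT salt, and 44.7, 50.1 and 55.5 in line 1, line 2 and WT control. MYB123 averaged 11.7, 14.1 and 1.54 FPKM in line 1, line 2 and WT salt, and 11.1, 12.2 and 8.90 in line 1, line 2 and WT control.

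Within the 7, the closest pair was the first deoxychalcone synthase and 2-hydroxyisoflavanone synthase, 0.31 apart by the same measure, and the farthest was 2-hydroxyisoflavanone synthase and the dehydratase, 1.71 apart. The profile nearest to the mean of the 7 was that of vestitone reductase, at 0.27, and the farthest that of the dehydratase, at 1.11.

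On the genome, 4 of the 7 lie on chromosome 1 and 3 on chromosome 4, in the coordinates of the deposited table, whose build is not given in the sources used here. For 5 of 7, another entry with the same description lies within 100 kb. The first deoxychalcone synthase has LotjaGi1g1v0006200 at a gap of 24538 bases, which was lower than WT in control in line 1 (log2 change -1.25, limma adjusted p = 3.46e-04) and line 2 (-1.58, 2.99e-05), the same direction as its neighbour. The 2-hydroxyisoflavanone synthase has LotjaGi4g1v0063800 at 29597 bases, which was called lower in line 2 only (-0.50, adjusted p = 0.00641, against -0.32 and 0.0782 in line 1; the difference between the lines was not called). The 2'-hydroxylase and the methyltransferase have no such neighbour.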

How the data were processed

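Per the labels' protocols, shoot RNA was taken with a modified CTAB extraction, selected for poly(A) and copied with dUTP, which marks strand. The authors deposited a table of FPKM per gene; the submitters' processing notes name fastp, featureCounts 1.5.0-p3 and DESeq2 1.20.0. No aligner, genome build or strand setting is named there (not given in the sources used here). FPKM times gene length gave whole reads for 100% of values within 0.05 of a read, and each library's FPKM divisor lay within 0.991 to 1.01 of its median-of-ratios size factor. Of 33994 entries, 20433 were tested, the 7 chosen genes among them; the filter was 1 FPKM or more in 3 or more libraries.

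limma 3.58.1 in R 4.3.3 was fitted to log2(FPKM + 0.5) over all 18 libraries and 6 group means (12 residual degrees of freedom), two-sided, adjusted by Benjamini-Hochberg within each of 10 comparisons at 0.05. It was tested on simulated data for salt in WT, with 200 of 20433 genes changed. A first version, with raw residual SDs and 1 seed, gave 10.4% false calls, over the limit set for it; the test was then changed to moderated SDs and 20 seeds, that seed included, and judged on the mean. Recovery was 99.2% at a log2 change of 2 and 99.9% at 3, and false calls averaged 5.34% (2.45% to 9.91%). Raw SDs over the same seeds gave 5.71%. The simulated noise was normal and independent, without the blocks of columns, and only genes with a mean log2 value above 2 were changed. Recovery of smaller changes and of low genes was not simulated. Log2 differences understate the change of low genes. The 7 genes and all lists were chosen with earlier results of these data known. Lists are patterns on the table's descriptions; 3 isoflavone reductase homologs and 1 chalcone isomerase-like entry were left out after their descriptions were read. Named genes were the 7, the copies with their description and at least 5 FPKM, the 3 of each neighbouring list with the smallest adjusted p for the difference of salt effects, and the 8 most alike; the text names a part. Outside this rule, 5 genes of the isoflavonoid list and 1 MYB36 gene were named after their values were seen. Comparisons against WT share its libraries. Alternatives were pseudocounts 0.1 and 1, other filters, rescaling, fewer groups, terms for replicate number or library set, limma voom on recovered reads, each block of columns and each library left out. No replicates agreed within sampling noise: the recovered reads of the closest pair had a median chi-square of 2.37 per gene.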

Additional observations from a re-analysis of the deposited data

Results flagged for a closer look

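For 12 of the named genes outside the 7, the salt effect of the lines differed from that of WT by the test of the mean salt effect of both lines minus that of WT (limma, adjusted over all genes). Many more genes passed: 1203 of all tested were higher and 464 lower. On the log2 scale this difference was 3.03 for the 2-hydroxyisoflavanone synthase LotjaGi4g1v0063000 and 1.24 for LotjaGi4g1v0063800. For the deoxychalcone synthases it was 2.77 in LotjaGi6g1v0022600, 3.45 in LotjaGi6g1v0022500 and 2.03 in LotjaGi1g1v0006200, and for the dehydratase LotjaGi5g1v0316500 it was 2.77. Upstream, 6 genes had been picked for the smallest adjusted p of this same difference, so their passing is not independent evidence. It was 2.98 and 2.40 for the phenylalanine ammonia-lyases LotjaGi1g1v0690200 and LotjaGi1g1v0690300, 0.91 for the 4-coumarate--CoA ligase LotjaGi2g1v0450000, and 4.43, 3.81 and 3.03 for the chalcone synthases LotjaGi2g1v0446700, LotjaGi1g1v0470800 and LotjaGi1g1v0470600.

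In 2 of the 7 genes the salt libraries of each line all lay above its control libraries, while in WT they all lay below. The log2 difference of salt minus control was 0.57 in line 1 and 0.81 in line 2 for the deoxychalcone synthase LotjaGi4g1v0144700, and 0.40 and 0.49 for the 2'-hydroxylase LotjaGi4g1v0019000. These differences were not tested, and the values of the 7 genes also chose them. The share of all genes without overlap was not counted. By limma at an unadjusted p under 0.05, 2203 of 20433 genes were higher with salt in line 1 and 2722 in line 2.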

How the results depend on the processing

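Of the 10 counts of other isoflavonoid genes, 6 stayed within 1.5 times under every alternative tried. Salt in line 1 (1 called) gave 2 with a mean FPKM of at least 5, with the replicate block, with the side of the first principal component or the column block as a term, and in the last 8 columns, and 0 in the first 10. Salt in line 2 (2 called) gave 0 in the first 10 columns, 0 in the last 8 and 4 with only the compared groups. Line 1 against WT in control (7) gave 2 in the first 10 columns, and line 2 against WT in control (8) gave 5 in the last 8. The causes were not tested, but each block holds fewer libraries. Leaving out 1 library kept salt in WT at 10, line 1 against WT between 6 and 9 in control and 14 and 16 in salt, and line 2 against WT at 8 in control and between 15 and 17 in salt. Replicate numbers do not pair the samples: same-numbered deviations correlated between -0.315 and 0.479, and with the replicate block salt in WT gave 11 and the difference of salt effects 10. Of 1396 alternative values for the 7 genes, 100 moved by over 1 SD, 58 of them within a block of columns, and 0 of 830 changed sign where the difference was at least 1.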
